A study of Mus musculus with 6 samples.

Results

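Circular RNAs (circRNAs) detected only at D0, in proliferating preadipocytes, are described here. A circRNA was counted as detected at a stage with 2 or more reads in both libraries of that stage. By this rule 576 of the 3662 circRNAs of the table (15.7%), and 27.3% of the 2111 detected at D0, were D0-only. The read counts of the stages themselves chose these circRNAs, so their levels at D0 against the later stages are given as a description, with no test.

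The cells were those of the stromal vascular fraction, the mixed cells left when adipocytes are removed from a fat pad, from inguinal white fat of female mice aged 6 weeks, labelled C57BL/6 and given as C57BL/6J in the study's methods. On D0 they were at 90% confluence in growth medium and had not been induced. D4 cells had received 4 days of insulin, dexamethasone and 3-isobutyl-methylxanthine, and D8 cells another 4 days of insulin and the thyroid hormone T3. Each stage had 2 biological replicates, 6 libraries in all, made from RNA depleted of rRNA and linear RNA, and no source gives the number of animals behind a replicate. Such a primary culture can hold several cell types, and fewer cells of a type and less RNA per cell cannot be told apart in these bulk libraries.

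A circRNA arises when the donor splice site at the end of an exon is joined back to an upstream acceptor site, that of the exon itself or of one before it. The ring has no free end, which makes it resistant to exonucleases and long lived, so its level in a cell reflects its synthesis, its slow decay and its dilution when cells divide. One parental gene can give several circRNAs beside its mRNA, by pairing different acceptors and donors. Preadipocytes divide until they are confluent. In the course of differentiation they leave the cell cycle for good, remodel their matrix and cytoskeleton and switch on the genes of lipid storage.

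The back-splice junction is the only stretch that tells a circle from the linear RNA of its gene, and junctions of abundant D0-only circRNAs are shown for that reason. The first lines give the 6 with the highest mean at D0 among those that lie within coding exons alone. Each line holds the last 20 bases before the joint in lower case and the first 20 bases after it in capitals, 5′ to 3′ on the gene's strand, read from mouse genome build mm9. Exons are numbered on the annotated GENCODE transcript.
Rad18, chr6:112622118-112631670, minus strand, exons 5 to 8: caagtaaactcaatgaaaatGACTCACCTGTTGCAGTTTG
Rere, chr4:149813452-149851577, plus strand, exons 4 to 7: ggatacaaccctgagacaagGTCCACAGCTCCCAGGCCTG
Depdc5, chr5:33298502-33311420, plus strand, exons 33 to 37: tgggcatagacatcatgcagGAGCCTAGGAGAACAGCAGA
Slc38a10, chr11:119989737-120002959, minus strand, exons 3 to 10: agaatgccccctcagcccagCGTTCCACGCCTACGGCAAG
Pxdn, chr12:30658858-30660427, plus strand, exons 2 to 3: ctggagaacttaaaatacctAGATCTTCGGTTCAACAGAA
App, chr16:85013872-85030610, minus strand, exons 9 to 13: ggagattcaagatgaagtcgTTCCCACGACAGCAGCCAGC

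The next 5 also lie within coding exons and are the highest of those with no read in any D4 or D8 library.
Atxn2, chr5:122222676-122228114, plus strand, exons 6 to 8: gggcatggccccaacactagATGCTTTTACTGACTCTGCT
Sufu, chr19:46524319-46529336, plus strand, exons 4 to 8: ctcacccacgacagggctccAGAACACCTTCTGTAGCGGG
Baiap2l1, chr5:145039397-145046464, minus strand, exons 6 to 10: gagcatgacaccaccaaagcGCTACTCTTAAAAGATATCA
Pak1, chr7:105031982-105042523, plus strand, exons 6 to 9: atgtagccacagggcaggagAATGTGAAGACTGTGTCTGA
Ltbp2, chr12:86169398-86172873, minus strand, exons 4 to 8: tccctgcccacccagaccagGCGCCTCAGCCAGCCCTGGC

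The Pxdn circle is short enough to show whole. Its 144 bases are exon 2 (72 bases, lower case) and exon 3 (72 bases, capitals), and the last base of exon 3 is joined to the first base of exon 2.
Pxdn circle: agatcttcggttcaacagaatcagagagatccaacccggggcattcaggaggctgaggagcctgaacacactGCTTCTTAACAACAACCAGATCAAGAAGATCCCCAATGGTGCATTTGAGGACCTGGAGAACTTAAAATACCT

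The D0-only circRNAs rested on few reads. The 6 libraries held 30110 and 32310 circRNA reads at D0, 43069 and 41658 at D4, and 45371 and 50672 at D8, in replicates 1 and 2. Levels are given as circCPM, read counts scaled to 1000000 circRNA reads per library, so that 1 read was worth 33.2 circCPM in the smallest library and 19.7 in the largest. No value of the table equals 1, and a circRNA listed at 0 may have had a single read. Throughout, no read, none later and at D0 alone refer to values listed at 0. No fold change is printed where a stage has 0 in each library.

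On D0 the median D0-only circRNA had 4 reads in replicate 1 and 5 in replicate 2, with quartiles of 3 to 6 and of 3 to 7 reads. Their mean level at D0 ran from 64.2 circCPM through a median of 144 to 761 circCPM. The median of all circRNAs detected at D0 was 229 circCPM, and the highest D0-only circRNA ranked 240 among all circRNAs by mean level at D0. Only 14 had 10 or more reads in both D0 libraries, and 144 had 5 or more in both. The D0 replicates differed by a median ratio of 1.55, and by more than 2-fold for 181 of the 576. The higher value lay in replicate 1 for 290 and in replicate 2 for 286. Together the D0-only circRNAs took 9.35 and 9.83% of the circRNA reads at D0, 1.72 and 1.47% at D4, and 1.75 and 1.35% at D8.

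The D0-only circRNA with the highest level came from Rad18, an E3 ubiquitin ligase that starts the tolerance of DNA damage at stalled replication forks. Its circle of exons 5 to 8 (700 bases) had 30 and 17 reads at D0, 0 and 10 at D4, and 0 in both D8 libraries. The D0 mean was 761 ± 332 circCPM (SD, n = 2), and D4 replicate 2 was the only induced library with reads, at 240 circCPM. Both D0 libraries were above all 4 later ones.

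Rere, a nuclear corepressor of the atrophin family, was next and went against the name of the set. Its circle of exons 4 to 7 (434 bases) had 18 and 29 reads at D0, 0 and 65 at D4, and 0 and 57 at D8. Replicate 2 of D4 and of D8 both lay above either D0 library, and the Rere circle was excluded from those stages only by the 0 in replicate 1. Its mean was 748 ± 212 circCPM at D0, 780 ± 1103 at D4 and 562 ± 795 at D8 (SD, n = 2).

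Farp1, a guanine nucleotide exchange factor that links membrane receptors to small GTPases, gave a circle of its exon 2 alone (194 bases, part 5′ untranslated and part coding). It had 18 and 19 reads at D0, none at D4, and 0 and 5 at D8. The circle of Depdc5, a subunit of the GATOR1 complex that restrains mTORC1, had 14 and 23 reads at D0, 0 and 6 at D4, and none at D8. Slc38a10, a member of the sodium-coupled amino acid transporter family, gave 14 and 22 reads at D0, 0 and 7 at D4, and 7 and 0 at D8. In all of these circles both D0 libraries stood above every later library.

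Pxdn encodes peroxidasin, the enzyme that cross-links collagen IV in basement membranes. The 144-base circle shown above had 17 reads in each D0 library, 6 and 0 at D4, and none at D8, with a D0 level of 545 ± 27.2 circCPM (SD, n = 2). The circle of App, the amyloid precursor protein, had 19 and 14 reads at D0, 0 and 3 at D4, and 5 and 0 at D8. The long intergenic non-coding RNA 2610307P16Rik gave a circle of its exons 4 and 5 (548 bases) with 14 and 19 reads at D0, none at D4, and 0 and 3 at D8. It was the highest of 6 D0-only circRNAs from lincRNAs, while 566 came from protein-coding genes.

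The last 4 of the 12 highest were Gse1, Mdn1, Atxn2 and Aftph. Gse1, a subunit of histone deacetylase complexes, gave a 219-base circle of exon 2 with 24 and 8 reads at D0, 0 and 3 at D4, and 17 and 0 at D8, so that D8 replicate 1 lay above D0 replicate 2. Mdn1, a giant ATPase of 60S ribosome assembly, had 8 and 24 reads at D0, 5 and 0 at D4, and 0 and 4 at D8. Aftph, a protein of clathrin-coated vesicles, had 13 reads in each D0 library, 3 and 0 at D4, and 0 and 10 at D8. The remaining circle, from Atxn2, was listed at 0 in every later library.

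**Figure D1:**
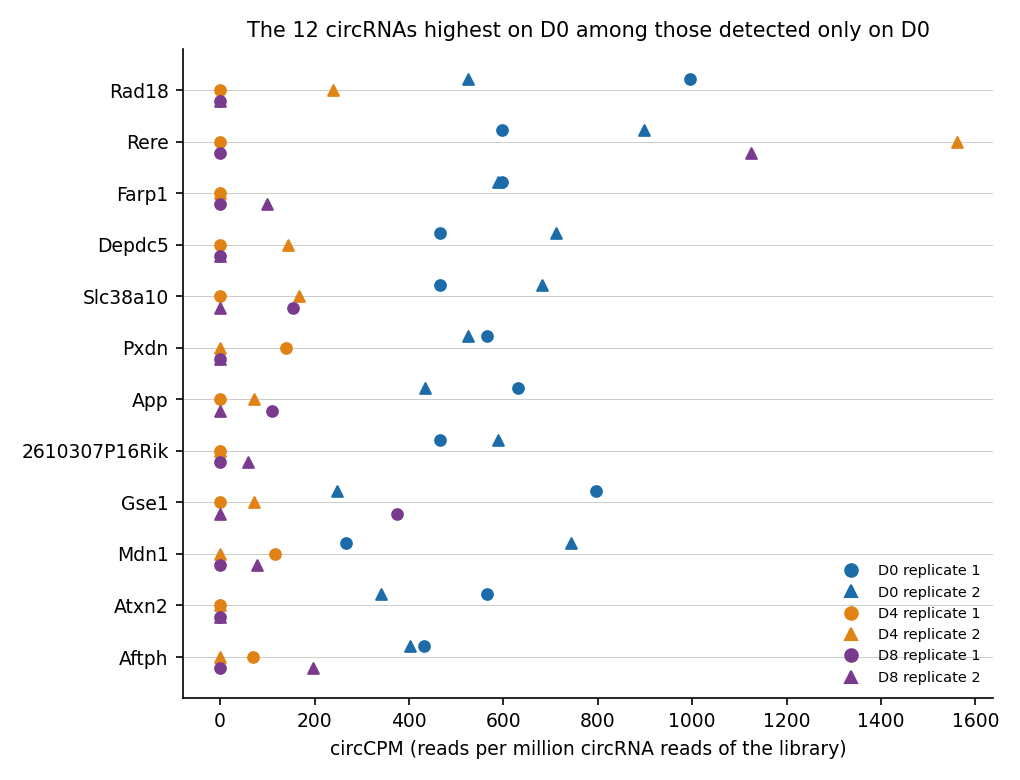
Level in circCPM (horizontal axis) of the 12 D0-only circRNAs with the highest mean at D0, by parental gene, in each of the 6 libraries (colour, stage; circle, replicate 1; triangle, replicate 2). The D0 points lie above all later ones for 10 genes, and the exceptions are Rere, whose D4 and D8 replicate 2 reach 1560 and 1125 circCPM, and Gse1, whose D8 replicate 1 lies above D0 replicate 2.

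Of the 576, 198 (34.4%) had no read in any D4 or D8 library. Highest among them was the Atxn2 circle of exons 6 to 8 (412 bases), from an RNA-binding protein of translation and stress granules, with 17 and 11 reads at D0 and a mean of 453 ± 158 circCPM. Sufu, the negative regulator that holds back GLI factors in Hedgehog signalling, gave 9 and 17 reads. Ctnnb1, which encodes β-catenin of cell junctions and Wnt signalling, gave 15 and 9. The median D0 level of all 576, 144 circCPM, would correspond to 5.99 to 7.29 reads in a D4 or D8 library. The rule chose these circRNAs by their reads at D0 and later, so nothing is read from this value about the zeros. The part of depth in them was not tested.

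The next circles with no later read came from genes of several functions. Baiap2l1, a membrane-bending adaptor of actin assembly, had 10 and 14 reads at D0. Mical2, an oxidase that disassembles actin filaments, had 9 and 11 reads in its 340-base exon 3 circle. Pak1, a kinase switched on by Rac and Cdc42, had 11 and 7, and Ltbp2, a matrix protein of elastic microfibrils, had 10 and 8. Acvr1, a type I receptor for bone morphogenetic proteins, had 9 reads in each library, with a mean of 289 ± 14.4 circCPM (SD, n = 2), and Ets1, a transcription factor, tied with it.

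The other 378 had reads in exactly 1 library of D4, of D8 or of each, which is what the rule allows. D4 alone accounted for 123, D8 alone for 123, and both stages for 132. In the induced libraries 148 and 107 of the D0-only circRNAs had reads at D4, and 153 and 102 at D8, in replicates 1 and 2. The most reads in any later library were 2 to 4 for 158 circRNAs, 5 to 9 for 177, 10 to 14 for 33, and 15 or more for 10. For 17 the mean at D4 or D8 was at or above the mean at D0, 12 of them at D4 and 8 at D8.

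After Rere, the most reads in a later library were those of Il1r1, Arfgap3 and Ambra1, with mean D0 levels of 159, 144 and 143 circCPM. Il1r1, the interleukin-1 receptor, gave a circle with 4 and 6 reads at D0, 24 and 0 at D4, and 0 and 12 at D8. Only 1 of its ends is at an annotated exon end. Arfgap3, a regulator of Arf GTPases at the Golgi, had 4 and 5 reads at D0, 4 and 0 at D4, and 0 and 22 at D8. Ambra1, a regulator of autophagy, had 3 and 6 at D0, 18 and 0 at D4, and 3 and 0 at D8. In these 3 genes at least 1 later library exceeded both D0 libraries.

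The circle of 5730419I09Rik had 2 and 3 reads at D0 and 17 reads in D8 replicate 1 alone. The Gse1 circle reached the same 17 reads in that library. Stau2, a double-stranded RNA-binding protein of mRNA transport, had 17 reads in D8 replicate 2, with 9 and 0 at D4 and 11 and 7 at D0. Just outside the rule lay 5 circRNAs that were detected at D0 and reached exactly 2 reads in both libraries of 1 later stage. They came from Actr2, N4bp1, Smurf2, Trmu and Dhx35, and the Actr2 circle, for example, had 8 and 6 reads at D0, 7 and 0 at D4, and 2 and 2 at D8. Just inside, 19 circRNAs had exactly 2 reads in both D0 libraries, and 164 had exactly 2 in at least 1 of them.

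The 576 circRNAs came from 503 parental genes (2 lay in no annotated gene on their strand). For 240 of these genes (47.7%) another circRNA was detected at D4 or D8, while for 263 none was. D4-only circRNAs, chosen by the same rule at D4, had another stage's circRNA in 60.3% of 388 parental genes, and D8-only circRNAs in 51.8% of 562. A circRNA that was the only one of its gene made up 42.4% of the D0-only, 30.2% of the D4-only and 38.5% of the D8-only set. These shares are a description, and the circRNAs of the 3 sets had medians of 9, 10 and 11 reads at their own stage.

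Some D0-only circles used a splice site of a circle that was also detected later. An end was shared with a circRNA detected at D4 or D8 by 169 (29.3%), the acceptor by 105 and the donor by 86. In 116 of the 169 the other circle was the higher at D0, with a median of 317 circCPM against 146 for the D0-only circle. The 539 other circRNAs of the parental genes summed to 233280 and 215410 circCPM at D0, 189440 and 190020 at D4, and 188580 and 185800 at D8. Every row of the table was detected at some stage, so each of these 539 had to be detected at D4 or D8. Their genes, in turn, were chosen for a circle detected at D0 and not later. The sums are thus not independent of the rule and are a description. Their sum was higher in both D0 libraries than in any later one, while the D0-only circRNAs themselves went from 93457 and 98267 circCPM to between 13459 and 17478.

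Rad18 was the one gene of 8 with 3 or more D0-only circRNAs in which none of its circles was detected later. All 3 of its circles start at the same acceptor, exon 5, and end at the donors of exons 6, 8 and 9, which their junctions show: the capitals repeat and the lower case letters differ.
Rad18, chr6:112629911-112631670, exons 5 to 6 (438 bases): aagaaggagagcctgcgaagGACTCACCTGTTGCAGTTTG
Rad18, chr6:112622118-112631670, exons 5 to 8 (700 bases): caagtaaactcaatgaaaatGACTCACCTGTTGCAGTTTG
Rad18, chr6:112615272-112631670, exons 5 to 9 (761 bases): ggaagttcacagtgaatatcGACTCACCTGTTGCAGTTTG

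The circle to exon 6 had 6 and 16 reads at D0 and 0 and 6 at D4, and that to exon 9 had 8 and 11 at D0 and 8 and 0 at D4. With the main circle, the gene gave 44 reads in each D0 library, 8 and 16 at D4, and none at D8. The 2 D0 libraries thus had equal totals although each single circle differed between them.

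Trio, a guanine nucleotide exchange factor for Rac and RhoA, had the same form. Its 3 D0-only circles start at exon 4 and end at exons 7, 9 and 11, and they held 80.0% of its circRNA reads at D0. The circle of exons 4 to 7 had 14 and 6 reads at D0 and 7 and 0 at D4. That of exons 4 to 11 had 9 and 3 at D0 and none later, and that of exons 4 to 9 had 2 in each D0 library and 2 in D8 replicate 1. The remaining circle, of exons 8 to 11, shares the exon 11 donor and was detected at every stage, with 3 and 6, 2 and 12, and 3 and 4 reads.

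In Lpp, a focal adhesion protein, the 4 D0-only circles were strung along the gene and shared no end. They covered exons 2 to 3, 6 to 7, exon 8, and exons 9 to 10, with 75.8% of the gene's circRNA reads at D0. The circle of exons 9 to 10 had 8 and 12 reads at D0, 0 and 4 at D4, and 0 and 11 at D8, and that of exons 2 to 3 had 7 and 7 at D0 and 0 and 11 at D8. The exon 5 circle between them was detected at all stages, with 4 to 9 reads in every library.

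In Rps6kc1, which encodes a kinase-like protein that binds sphingosine kinase, the D0-only circles were minor forms. Its main circle of exons 3 to 6 had 77 and 70 reads at D0, 44 and 37 at D4, and 37 and 66 at D8. The 4 D0-only circles held 15.6% of the gene's reads at D0. Those of exons 4 to 5 (6 and 8 reads) and exons 4 to 6 (7 and 2 reads) had no later read. They use the donors of the 2 circles detected at all stages, with the acceptor of exon 4 in place of exon 3. The D0-only circle of exons 7 to 8 had 8 and 6 reads at D0, none at D4, and 0 and 7 at D8. The remaining D0-only circle had 5 and 3 reads at D0 alone.

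In Atxn2 the circle of exons 2 to 5 was detected at every stage, with 41 and 66 reads at D0, 43 and 68 at D4, and 46 and 51 at D8, while the circle of exons 6 to 8 was seen at D0 alone. Its neighbour of exons 7 to 8, with the same donor, had 6 and 8 reads at D0, 4 and 0 at D4, and 0 and 3 at D8. The D0-only Atxn2 circle of exons 19 to 20 had 2 reads in each D0 library, 0 and 9 at D4, and 6 and 0 at D8, so that 1 library of each later stage exceeded both D0 libraries. In Tulp4, a member of the tubby-like family, the D0-only circles held 11.6% of the gene's reads at D0, most of which came from 1 circle with 233 and 81 reads. The D0-only circle of exons 4 to 6 of Tulp4 had 7 and 18 reads at D0, 6 and 0 at D4, and 2 and 0 at D8.

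Farp1 gave 6 circles, and its 3 D0-only ones held 45.7% of its D0 reads. Its exon 2 acceptor also served a circle with 16 and 19 reads at D0, 4 and 0 at D4, and 10 and 11 at D8. Adamts6, a secreted metalloprotease, gave 8 circles, of which the 3 D0-only ones had at most 9 reads and 2 share the donor of exon 21. The gene's other 5 circles end at exon 15 or before, and 2 of them were D8-only.

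The parental genes were grouped by 10 lists of function, matched on gene symbols, and the D0-only share of each list is given beside 15.7% for the whole table. The lists hold 172 of the 576 circRNAs, and the other 404 are in none. Because detection chose these circRNAs, the shares describe the set, and no list was tested.

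Matrix and adhesion genes had the highest D0-only share of the 10 lists. Of their 78 circRNAs, 28 (35.9%), from 18 genes, were D0-only, 5 D4-only (6.41%) and 11 D8-only (14.1%), where 13.1% of all circRNAs were D4-only and 17.97% D8-only. Of the 28, 11 had no later read. Pxdn and Ctnnb1 led, with the reads given above. Ltbp1, which anchors latent TGF-β to the matrix, gave a 292-base circle of exon 3 with 5 and 16 reads at D0 and 0 and 3 at D8. A second Ltbp1 circle, of exons 14 to 19, had 5 and 7 reads at D0 alone.

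Further matrix and adhesion circles were chosen after their values were seen. Has2, a synthase of hyaluronan, had 3 and 8 reads, and Itgb3, the β3 integrin subunit, had 4 and 6, both without a later read. Itgav, the αv subunit that pairs with it, gave circles with 6 and 7 reads and with 3 and 4 reads at D0, which begin 3 bases apart, and the first also had 4 and 0 reads at D4 and 2 and 0 at D8. Of the 28 circles, 17 had later reads. Ptk2, the focal adhesion kinase, had 3 and 8 reads at D0, 9 and 0 at D4, and 3 and 0 at D8. Itga9, the α9 integrin subunit, had 6 and 2 at D0, 0 and 4 at D4, and 8 and 0 at D8, and Ctnna1, α-catenin, had 6 and 3, 3 and 0, and 0 and 7. In circCPM, which allows for depth, the highest library of each of these 3 was at D0. The list took in Ctnnbl1 by its symbol, with 4 reads in each D0 library, although it encodes a protein associated with the spliceosome, and 7 of the 28 circles came from Lpp and Adamts6. Summed over the whole list, the level was 19229 and 22253 circCPM at D0, 18110 and 16491 at D4, and 22547 and 19143 at D8, with D8 replicate 1 above both D0 libraries. Without the 28 it was 14015 and 17270 at D0, 17484 and 16179 at D4, and 21864 and 18334 at D8.

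Cell cycle and mitosis genes gave 19 D0-only circRNAs of 86 (22.1%), beside 15 D4-only (17.4%) and 9 D8-only ones (10.5%), and 8 of the 19 had no later read. E2f3, a transcription factor of S-phase entry, had 9 and 11 reads at D0 and 0 and 7 at D8. Stag1, a subunit of cohesin, had 13 and 6 at D0 and 0 and 9 at D8. Racgap1, which organises the central spindle in cytokinesis, had 9 and 8 at D0 and none later, and a second circle with the same acceptor had 5 and 3. Pds5a, a regulator of cohesin, had 6 and 4 at D0 and 0 and 3 at D4.

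Lower circles of the cell cycle list, named after their values were seen, included Bub1b, a kinase of the spindle checkpoint, with 4 and 5 reads. Ect2, the RhoA activator of cytokinesis, had 3 and 3, and Ccne2, cyclin E2, had 2 and 2, all without a later read. Cdc45, a subunit of the replicative helicase, had 5 and 4 reads at D0 and 0 and 2 at D4. Others had later reads: Ckap5, a microtubule polymerase of the spindle, had 3 and 7 at D0, 0 and 8 at D4, and 5 and 0 at D8, and a circle of Cenph, a kinetochore protein, had 3 and 2 at D0 and 5 and 0 at D4. In circCPM the highest library was at D0 for Ckap5 and at D4 for this Cenph circle. Summed over all circRNAs of the list, the level was 19263 and 21510 circCPM at D0, 16973 and 18724 at D4, and 14216 and 14841 at D8. These sums hold the D0-only circRNAs that the rule chose. Without them D0 was 16340 and 18880 circCPM and D4 was 16741 and 18268, which overlap, and D8 was 14040 and 14525.

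DNA replication and repair genes gave 8 of 44 (18.2%), the 3 Rad18 circles first. Polh, the polymerase that copies past ultraviolet lesions, had 4 and 8 reads at D0 and none later. D4-only circRNAs were 9 of the same 44, so the D0 share was not the highest of the stages in this list.

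Signalling genes were near the share of the table. In the TGF-β, BMP, Wnt, Hippo, Notch and Hedgehog list 13 of 84 (15.5%) were D0-only and 19 (22.6%) were D4-only. Its highest were Sufu, Ctnnb1, Ltbp1 and Ltbp2, followed by Acvr1. In the growth factor and MAPK list 18 of 118 (15.3%) were D0-only. Map4k3, a kinase upstream of JNK signalling, had 17 and 7 reads at D0 and 4 and 0 at D8. Igf1r, the insulin-like growth factor 1 receptor, had 10 and 7 at D0, 7 and 0 at D4, and 5 and 0 at D8.

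In the same list Spred1, an inhibitor of Ras and MAPK signalling, had 8 and 9 reads at D0, 0 and 3 at D4, and 7 and 0 at D8. Map2k4, a kinase that activates JNK, had 8 reads in each D0 library, 4 and 0 at D4, and 0 and 2 at D8. The actin and cytoskeleton list had 21 D0-only circRNAs of 138 (15.2%), as many as D4-only ones. Myo9b, a myosin with a RhoGAP domain, had 16 and 7 at D0, 5 and 0 at D4, and 10 and 0 at D8. Cdc42bpb, a kinase downstream of Cdc42, had 11 and 10 at D0, 6 and 0 at D4, and 3 and 0 at D8.

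Among chromatin regulators 22 of 154 (14.3%) were D0-only. Eed, a subunit of Polycomb repressive complex 2, had 7 and 13 reads at D0, 0 and 4 at D4, and 0 and 5 at D8. Phf8, a histone demethylase, had 6 and 8 at D0 and none later. Kat2b, an acetyltransferase, had 4 and 10 at D0, 8 and 0 at D4, and 3 and 0 at D8. Brwd1, a bromodomain protein, had 7 and 6 at D0, 3 and 0 at D4, and 6 and 0 at D8.

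RNA-binding and splicing genes gave 22 of 134 (16.4%). Eif4h, a cofactor of the eIF4A helicase, had 7 and 13 reads at D0, 0 and 7 at D4, and 4 and 0 at D8. Fxr2, a relative of the fragile X protein, had 8 and 6 at D0 alone. Rbpms had 8 and 3 at D0, 2 and 0 at D4, and 8 and 0 at D8, and Rbm14, a protein of nuclear paraspeckles, had 3 and 8 at D0, 0 and 8 at D4, and 3 and 0 at D8. Qk, named after its values were seen because the quaking protein is known to promote the circularization of exons, gave 2 D0-only circles with 3 and 5 and with 2 and 5 reads, the first with 3 reads in D8 replicate 1.

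The ubiquitin and SUMO list had 19 of 169 (11.2%) at D0 only. Usp10, a deubiquitinase, had 12 and 4 reads at D0, 4 and 0 at D4, and 0 and 10 at D8. Usp12 had 5 and 11 at D0, 0 and 8 at D4, and 0 and 11 at D8. Rnf217 had 8 and 7 at D0 and 0 and 7 at D4, and Usp9x had 4 and 10 at D0 and 0 and 5 at D8.

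Lipid metabolism and adipocyte genes were at the low end, with 6 of 63 (9.52%) at D0 only and 26 (41.3%) at D8 only, where 15.7 and 17.97% of all circRNAs were. Highest of the 6 was Osbpl11, an oxysterol-binding relative, with 6 and 5 reads at D0, 3 and 0 at D4, and 0 and 9 at D8. Acot7, a thioesterase of acyl-CoA, had 3 and 7, and Agpat6, an acyltransferase of triglyceride synthesis, had 5 and 4, both at D0 alone. The list's circRNAs summed to 5679 and 5076 circCPM at D0, 13397 and 13443 at D4, and 24090 and 20781 at D8, and without the 6 to 4915 and 4302, 13281 and 13443, and 24090 and 20603. The stages did not overlap either way.

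**Figure D2:**
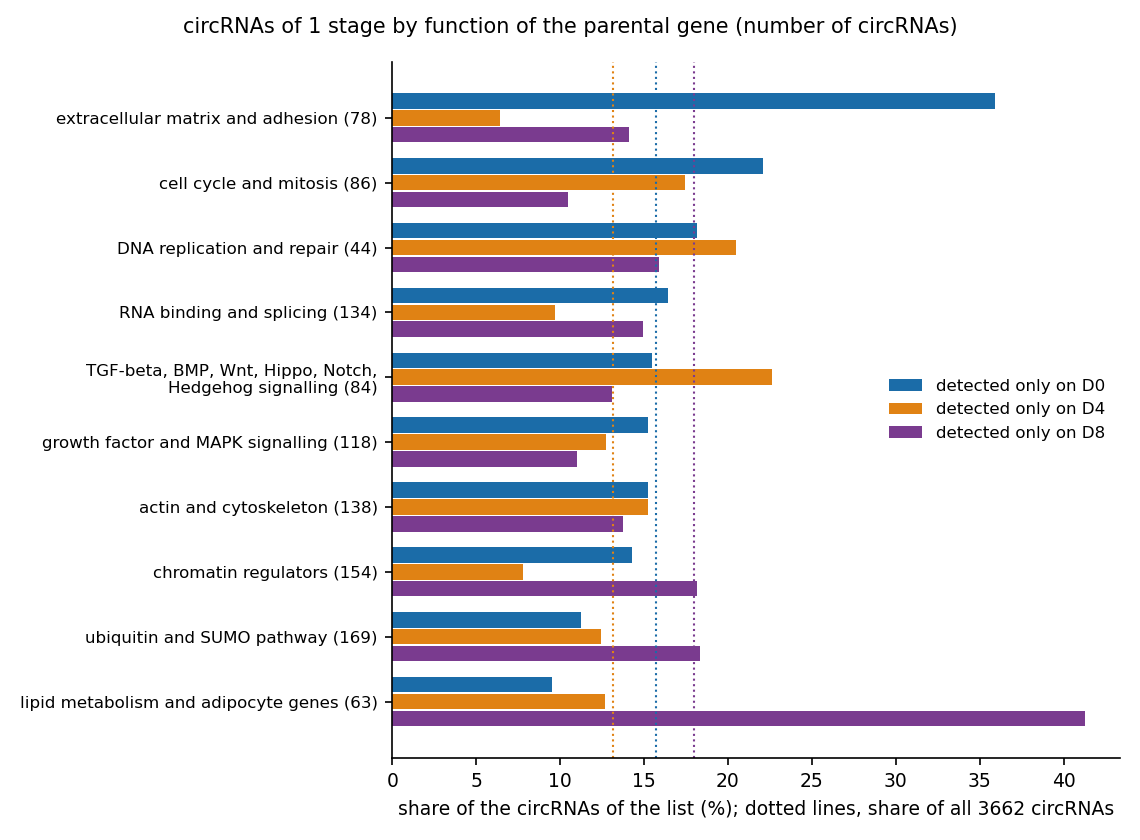
Share (%) of the circRNAs of each list of parental genes that was detected only at D0, only at D4 or only at D8, with the number of circRNAs of the list in brackets. Dotted lines give the share of all 3662 circRNAs, which is 15.7% for D0. Matrix and adhesion genes have the longest D0 bar (35.9%) and lipid genes the longest D8 bar (41.3%).

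The label of the cells was read against markers of the cell types that such a culture could hold. None of the 576 came from a gene of the 7 marker lists. Of 21 preadipocyte and fibroblast markers, 2 gave a circRNA: that of Pdgfra, the receptor that marks adipocyte progenitors, had 8 and 10 reads at D0, 3 and 0 at D4, and 4 and 5 at D8, and that of Ebf2 had 3 and 0, 6 and 3, and none. Of 20 adipocyte markers, 5 gave 12 circRNAs, and 11 of these, from Pparg, Acaca, Cd36, Lipe and Lpl, were listed at 0 in both D0 libraries. The other one, from Acaca, which encodes acetyl-CoA carboxylase, had 23 and 4 reads at D0, 27 and 27 at D4, and 66 and 38 at D8.

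The adipocyte markers summed to 764 and 124 circCPM at D0, 1045 and 1152 at D4, and 2755 and 2546 at D8, with no test. No circRNA came from the endothelial, pericyte, mesothelial or skeletal muscle markers, and 1, from the macrophage marker Emr1, had 10 and 4 reads at D8 and none before. Only 8 marker genes gave a circRNA, so these lists say little about cells in the culture, and the part of other cells in the D0-only set was not tested.

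The parental genes' other circRNAs were also compared between D0 and the later stages, circle by circle. As a set they are not independent of the rule. Their genes were chosen for a circle detected at D0 and not later. A circle of these genes that was lost after D0 is D0-only, and those left had to be detected at D4 or D8. Counts and medians over them, in either direction, are therefore a description. Counts were fitted with edgeR's quasi-likelihood test over the 1407 circRNAs that passed a filter on low counts, with p-values adjusted over all of them by Benjamini and Hochberg. Of the 539 other circRNAs, 266 were tested. On D4 against D0, 8 of the 266 (3.01%) passed at 0.05, where 3.27% of all circRNAs tested did. Of these 7 were lower at D4 (2.63%, against 1.07% of all tested) and 1 was higher (0.376%, against 2.2%), and the difference between these shares was not tested. The median log2 fold change of the 266 was -0.05, against 0.03 for all tested.

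The largest of the 7 in reads came from Cacna1c, the pore-forming subunit of the L-type calcium channel. The circle at chr6:119002619-119007533 had 206 and 267 reads at D0, 114 and 83 at D4, and 84 and 91 at D8, without overlap between D0 and the later stages. Its log2 fold change was -1.61 ± 0.249 (SE) at D4 (edgeR adjusted p = 0.0302) and -1.95 ± 0.252 at D8 (edgeR adjusted p = 0.0245). One D0-only circle of the gene shares its donor and another its acceptor, with 3 and 17 reads and with 3 and 3 reads at D0, and with 9 and 5 reads in D4 replicate 1.

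The exon 2 acceptor of Dcbld2, a neuropilin-like membrane protein, served both kinds of circle. The tested one had 286 and 146 reads at D0, 73 and 58 at D4, and 115 and 107 at D8, with a log2 fold change of -2.09 ± 0.383 at D4 (edgeR adjusted p = 0.0342). The fold change was -1.42 without D0 replicate 1 and -2.51 without D0 replicate 2. The D0-only circle of exon 2 alone (228 bases) had 11 and 2 reads at D0 and none later. A circle of Taf4a, a subunit of the general transcription factor TFIID, had 27 and 27 reads at D0, 3 and 4 at D4, and 10 and 15 at D8 (log2 fold change at D4 -3.25 ± 0.596, edgeR adjusted p = 0.0342). Both D0-only Taf4a circles use its acceptor, exon 2, with 5 and 3 and with 3 and 3 reads at D0. The second also had 6 reads in D4 replicate 1, more than in either D0 library.

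Crim1, a transmembrane protein that binds bone morphogenetic proteins, gave a circle with 32 and 24 reads at D0, 4 and 4 at D4, and 7 and 10 at D8. It was lower at D4 by a log2 fold change of -3.13 ± 0.604 (edgeR adjusted p = 0.0373). The D0-only circle of exons 6 to 8, which shares its acceptor, had 5 and 6 reads at D0 alone. The other D0-only Crim1 circle, of exons 3 to 5, had 9 and 5 reads at D0, none at D4, and 12 and 0 at D8. Its level in D8 replicate 1 (264 circCPM) lay above that in D0 replicate 2 (155 circCPM). The Ltbp1 circle at chr17:75624496-75626581, which lies between the gene's D0-only circles, had 27 and 46 reads at D0, 5 and 8 at D4, and 9 and 16 at D8 (log2 fold change at D4 -2.80 ± 0.578, edgeR adjusted p = 0.0463). Both tested circles, of Crim1 and Ltbp1, were low at each later stage, with every D0 library above every later one.

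Zbtb38 and Nudcd3 had their lowest levels at D4, and in circCPM both D0 libraries also lay above both D8 libraries. The circle of Zbtb38, a zinc finger protein that binds methylated DNA, had 23 and 19 reads at D0, 0 in both D4 libraries, and 21 and 16 at D8 (edgeR adjusted p = 0.0302 at D4). That of Nudcd3, a co-chaperone of dynein, had 26 and 22 at D0, 5 and 4 at D4, and 27 and 31 at D8 (log2 fold change at D4 -2.74 ± 0.539, edgeR adjusted p = 0.0405). In the other direction, a circle of Rod1, a splicing regulator of the polypyrimidine tract-binding family, had 104 and 124 reads at D0, 300 and 323 at D4, and 157 and 223 at D8. Its log2 fold change at D4 was 1.10 ± 0.219 (edgeR adjusted p = 0.0407), while the D0-only Rod1 circle with the same donor had 6 reads in each D0 library and 3 in D8 replicate 1.

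An end was shared with a D0-only circle by 6 of these 8 circRNAs, and by 48.1% of the 266 tested. With either D4 library left out none of the 8 passed, and their highest adjusted p over the alternatives was 0.126 to 0.218. Each fit with a library left out applied the filter on low counts anew, so the circRNAs tested there were not the same 266. On D8 against D0, 1 of the 266 passed (0.376%, against 1.49% of all tested), the Cacna1c circle, which was lower at D8, where 0.284% of all tested were lower and 1.21% higher. It had a range of adjusted p over the alternatives of 8.57e-07 to 0.0893. The median log2 fold change of the 266 was -0.22 at D8, against 0.05 for all tested.

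**Figure D3:**
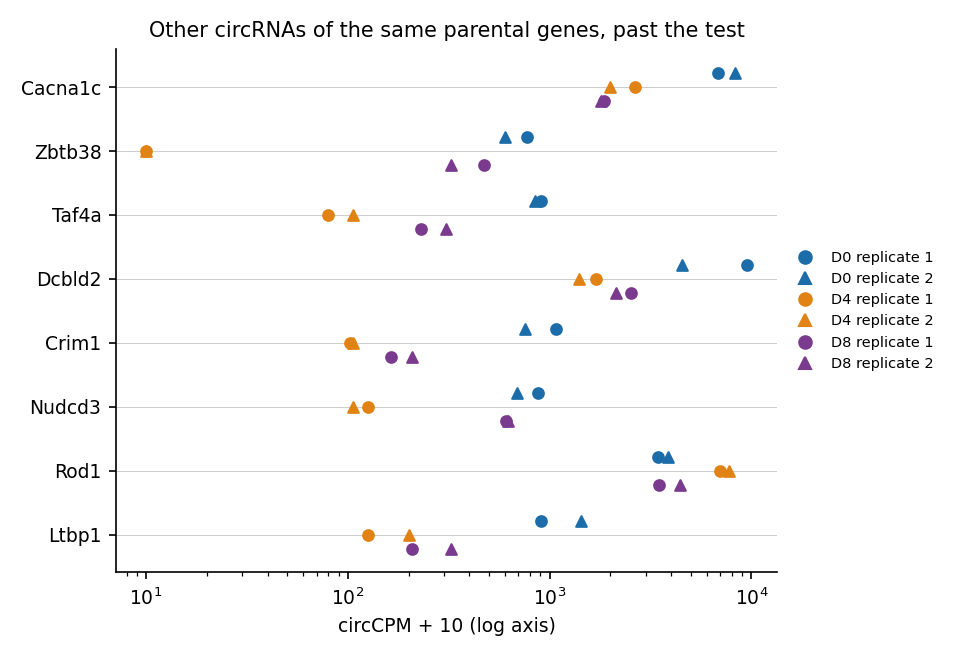
Levels (circCPM with 10 added, log axis) of the 8 circRNAs that passed the test at D4 against D0 and share a parental gene with a D0-only circRNA, in each library (colour, stage; circle, replicate 1; triangle, replicate 2). The D4 points lie below the D0 points for 7 genes and above them for Rod1, and Zbtb38 is at 0 in both D4 libraries.

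Only 49 of the 576 D0-only circRNAs passed the filter on low counts, and they passed through their reads at D0. None of the 49 was called by edgeR at D4 or at D8, where 16 and 19 were under an unadjusted p of 0.05, against 19.9 and 18.8% of all 1407 tested. DESeq2 gave 21 of the 49 an adjusted p and called 2 and 3 of these, against 5.36 and 3.85% of the 1325 circRNAs with an adjusted p. The edgeR fit of D0 and D4 alone called 12 of the 25 D0-only circRNAs it tested, against 7.85% of all 968. Since the rule used these contrasts, nothing is read from these counts.

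The exonic share was below that of the table in each set of 1 stage. Both ends lay in exons of a gene for 530 (92.0%, Wilson 95% interval 89.5 to 94.0%), 44 were intronic and 2 intergenic, where 95.1% of all circRNAs were exonic (94.3 to 95.7%), 93.8% of D4-only (91.2 to 95.6%) and 94.7% of D8-only ones (92.7 to 96.2%). The intervals of D4-only and D8-only circRNAs overlapped those of D0-only and of all. Both ends were at annotated exon ends for 506 (87.9%, interval 84.9 to 90.3%), against 91.8% of all (90.9 to 92.6%), 90.4% of D4-only and 90.7% of D8-only circRNAs. These intervals treat circles as independent, which those of 1 gene are not. The splice signals AG before the acceptor and GT after the donor flanked 573 (99.5%). Of the 498 that could be placed on 1 transcript, 80.3% held coding bases alone and 14.3% held the start codon, against 77.7 and 16.2% of all.

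The median D0-only circle was made of 3 exons and 457.5 bases, against 443 bases for all, and 33 of the 498 (6.63%) were 1 exon. The acceptor of exon 2, the first that can splice back, was used by 33.9%, near the 34.4% of all circRNAs, beside 42.7% of those detected at all stages, 30.3% of D4-only and 25.8% of D8-only circRNAs. The introns before and after the circle had medians of 10181 and 6832.5 bases, against 10447 and 8211 for all.

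Genomic span was close to that of D8-only circRNAs and of those of all stages, and shorter than that of D4-only ones. The median span was 6831 bases for D0-only circRNAs (quartiles 2326 to 13478), 6124.5 for D8-only, 7045 for those of all stages and 12152 for D4-only. D4-only circles also had a median of 4 exons in place of 3. These values were not tested, as circles of 1 gene are not independent.

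**Figure D4:**
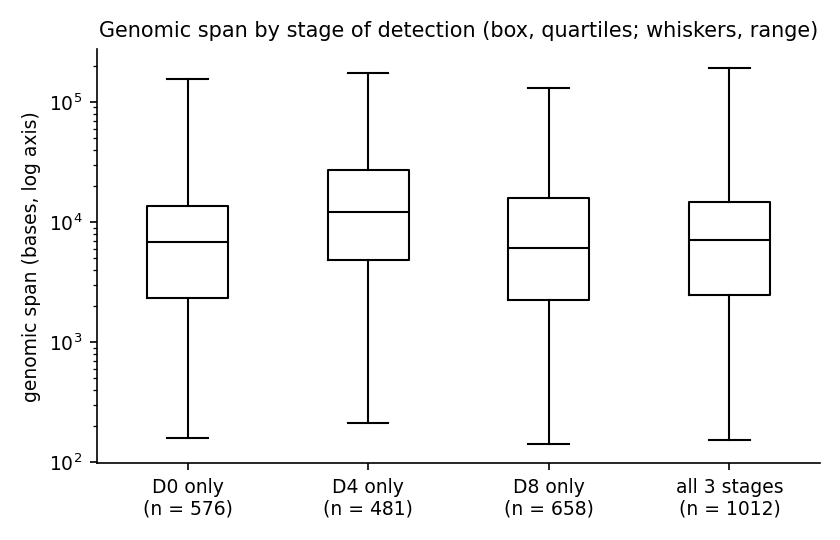
Genomic span (bases, log axis) of the circRNAs detected only at D0, only at D4, only at D8 or at all 3 stages, with the median (line), quartiles (box) and range (whiskers). The D0-only box (median 6831) lies level with those of D8-only (6124.5) and all stages (7045), and the D4-only median is 12152.

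Flanking sequence was searched for features linked to circularization. The letters ACTAAC or ACTAAT, the core of the site bound by the quaking protein, stood within 500 bases before the acceptor of 13.4% of D0-only and 16.4% of all circRNAs, and within 500 bases after the donor of 14.9 and 14.7%, searched on the gene's strand. The 1000-base flanks held an inverted match of 50 or more bases, which could pair in the transcript, for 71 (12.3%), against 11.3% of all. Such matches are a description of letters and not of sites.

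In circBase, the public catalogue whose identifiers the table carries, 297 of the D0-only circRNAs (51.6%, Wilson 95% interval 47.5 to 55.6%) had an entry. The share was 51.1% for D4-only, 48.2% for D8-only and 85.4% for those of all stages. Within the D0-only set it was 42.9% of those with no later read and 68.1% of those with 5 or more reads in both D0 libraries. The part of abundance in the share was not tested. D0-only circRNAs came from chromosomes 1 to 19 and X, with 51 on chromosome 2 and 9 on chromosome X, and made up 10.6% (chromosome 3) to 19.2% (chromosome 17) of the circRNAs of a chromosome.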

How the data were processed

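The authors trimmed reads with fastp, aligned them to mm9 with BWA-MEM, called circRNAs with CIRI2 and deposited a raw read count per back-splice junction and library, without normalization, keeping a circRNA that reached 2 reads in each replicate of a stage. Their processing notes also name FastQC 0.11.9 and HISAT2 2.2.0. Library depth is the column total, and intervals on shares are over circRNAs.

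The members and lists were chosen with earlier results of these data known. The circRNAs named are, of the D0-only ones, the 12 highest on D0, the 8 highest without a later read, the 4 highest per list, those of genes with 3 or more, the 6 with most later reads (with ties) and the other circRNAs called of their genes. Further ones of the matrix, cell cycle and RNA-binding lists were chosen after their values were seen. One that the rule names is not reported here. Ends were placed on GENCODE M1 (mm9), on the transcript with the most exons between them, and start positions are counted from base 1. Inverted matches came from blastn 2.17.0.

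Counts were fitted for all stages in R 4.3.3 with edgeR 4.0.16 (TMM, filterByExpr with a minimum count of 10, common dispersion 0.219). The alternatives were DESeq2 1.42.0, other size factors and filters, a replicate block, fits of 2 stages and each library left out. Scripts ran in Python 3.11.15 and were tested on simulated data. No source says that replicates are paired between stages or what separates them, so p-values measure the spread between these libraries.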

Additional observations from a re-analysis of the deposited data

How the results depend on the processing

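The count of D0-only circRNAs rests on the detection rule. It was 576, but 239 with 5 or more reads in both libraries of a stage, and 198 both with 2 or more reads in either library and with no read in any D4 or D8 library. It was 484 with 3 reads and 620 at a minimum set in circCPM, and 423 to 474 with 1 D4 or D8 library left out. Leaving out a D0 library cannot change it, since each row of the table was detected in both libraries of some stage. Parental genes with a circRNA detected on D4 or D8 were 47.7%, and 39.7% at 5 reads. Among members with no later read the share in circBase was 42.9% and the exonic share 88.9%, and with 5 or more reads in both D0 libraries the share in circBase was 68.1%.

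Of the other circRNAs of the parental genes, 8 passed on D4, but 13 with DESeq2, 3 without the filter and 0 to 11 with 1 library left out. With column totals all 8 calls were lower on D4, where 7 of 8 were with TMM. On D8 1 passed, but 3 with DESeq2, 0 in the fit of 2 stages, and 1 to 5 with 1 library left out. A fit of D0 and D4 alone called 12 of the 25 D0-only circRNAs it tested and 7.85% of all 968, where the fit of all stages called 0 D0-only ones, and nothing is read from this contrast, which the rule used. The cause of these changes was not tested. Where a stage was left with 1 library, that library is assumed to vary like the others.

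Whether the replicate numbers pair the libraries is not known. The deviations of same-numbered libraries correlated at r = 0.0348, 0.0703 and 0.0470 across circRNAs. With 2 libraries per stage and few reads, these values cannot decide it. With a replicate block 2 circRNAs passed on D4 and 1 on D8. The median D0-only circRNA had 4 and 5 reads on D0, and 49 of the 576 passed the filter on low counts.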
